A study of Mus musculus with 18 samples.

Results

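Interferon-induced and antigen presentation genes were described in cultured mouse embryo fibroblasts (MEFs) that carry an extra chromosome. A fixed list of 33 genes was taken: transcription factors of the interferon pathway, nucleic acid sensors, antiviral effectors, interferon-induced GTPases and the MHC class I pathway. Of these, 31 had a probe set that named the gene alone, among 12394 genes measured that way. Isg15 was skipped because its probe set lists several genes, and Xaf1 because no probe set was named for it. Each gene was read from 1 probe set, the one with the highest mean over the 18 arrays.

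The study hybridised 1 array for each of 18 MEF lines. There were 9 control lines with a normal chromosome set, 4 lines with 3 copies of chromosome 13 (trisomy 13), 3 with 3 copies of chromosome 16 (trisomy 16), 1 with 3 copies of chromosome 1 and 1 with 3 copies of chromosome 19. All were grown for 2 passages in DMEM with 10% fetal calf serum, and no interferon or other stimulus is named in the labels. Strain and embryo age are not stated there either. The title of each line opens with a number that trisomic and control lines share: trisomy 16 with controls 1 to 3 (numbers 89 and 92), trisomy 13 with controls 4 to 7, trisomy 19 with control 8, and trisomy 1 with control 9. What that number stands for is not stated in the labels, nor whether each line came from its own embryo, so p-values measure the spread between these lines.

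Interferons act on a cell through paired receptor chains. Type I interferons bind Ifnar1 and Ifnar2, and interferon gamma binds Ifngr1 and Ifngr2. The receptors activate Janus kinases, which phosphorylate STAT proteins. A complex that includes Stat2 and Irf9 binds the interferon-stimulated response element (ISRE) in promoters, while interferon gamma acts through the gamma-activated site (GAS). Fibroblasts respond to interferon, make interferon beta when they sense viral RNA, and display peptides on MHC class I at the surface. Several receptor-chain genes, Ifnar1, Ifnar2, Ifngr2 and Il10rb (a chain shared by the interleukin 10 and interferon lambda receptors), form a cluster on mouse chromosome 16 and have an extra copy in trisomy 16.

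The promoters of many members hold the response element. A core of 2 direct GAAA repeats (GAAANNGAAA, searched on both strands, so that TTTCNNTTTC is the same match) was found in 14 of the 26 members with a promoter entry in RefSeq (53.8%; 250 bases before to 50 after the start, GRCm38.p6). Among all 27025 genes with an entry the share was 3.99%. The GAS core TTCNNNGAA, which reads the same on both strands, was found in 7 of 26 members (26.9%) and in 9.55% of all genes. Of the 15 tested members, 7 (46.7%) held the ISRE core. Ifit2 and Irf1, the members with the lowest p in trisomy 13 and in trisomy 16, have an entry but were not among them. The stretches printed here are 80 bases each, on the gene's strand, and were picked from members that hold the core. Capitals mark the ISRE core.
Ifit1: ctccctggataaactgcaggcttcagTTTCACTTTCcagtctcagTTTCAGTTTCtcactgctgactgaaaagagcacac
Ifit3: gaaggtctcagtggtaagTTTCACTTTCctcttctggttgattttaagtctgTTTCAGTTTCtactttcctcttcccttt
Ifih1: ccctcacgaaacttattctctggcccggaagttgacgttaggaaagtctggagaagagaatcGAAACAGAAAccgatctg
Gbp2: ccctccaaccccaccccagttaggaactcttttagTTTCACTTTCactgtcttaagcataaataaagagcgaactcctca
Irgm1: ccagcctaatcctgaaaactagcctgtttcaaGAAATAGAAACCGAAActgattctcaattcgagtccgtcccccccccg
B2m: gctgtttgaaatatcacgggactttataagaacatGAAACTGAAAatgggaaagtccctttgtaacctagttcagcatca
Bst2: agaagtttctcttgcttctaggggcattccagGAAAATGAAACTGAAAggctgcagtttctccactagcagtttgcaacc

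Ifit1 (chr19:34640759-34640838, plus strand) and Ifit3 (chr19:34583355-34583434, plus strand) each hold 2 separate copies of the core upstream of the start of the promoter entry used. For Ifit3 the stretch lies inside the annotated gene span, which opens at 34583119. Irgm1 (chr11:48871403-48871482, minus strand) and Bst2 (chr8:71537555-71537634, minus strand) hold 2 copies that overlap, so that 3 repeats stand in a row. Gbp2 (chr3:142620569-142620648, plus strand) and B2m (chr2:122147513-122147592, plus strand) hold 1 copy upstream. The copy of Ifih1 (chr2:62646206-62646285, minus strand) lies downstream of the annotated start. These matches describe the letters of the reference sequence, and binding was not measured.

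Some arrays stood apart before any comparison. On 3 arrays, trisomy 13 replicates 3 and 4 and trisomy 16 replicate 1, the control probe sets at the 3' end of Gapdh read 5.57 to 6.94 log2 units above those at its 5' end, against -0.20 to 1.41 on the other 15, a measure of how far toward the 5' end of the message the labelled material reached. These arrays, called 3'-biased here, also had lower medians (5.11 to 5.29 against 5.62 to 5.91). Markers of macrophages were high on trisomy 13 replicate 4 and control 8: the cathepsin gene Ctss read 9.27 and 7.59 there, and at most 3.73 on the other 16 arrays. Averaged over the 18 macrophage markers, controls ran from 2.52 to 4.35, trisomy 13 from 2.71 to 5.08 and trisomy 16 from 2.72 to 2.85. All 12 fibroblast markers passed the level filter, with array means of 12.4 to 13.7, while 0 of 10 lymphocyte, 0 of 8 endothelial and 0 of 7 MHC class II genes did. In bulk cultures, fewer cells of a type and less RNA per cell cannot be told apart.

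At rest the readings of the members were split in the fibroblast lines. MHC class I, its light chain, Irf1, Irf9 and several effectors were measured on every array, while many of the antiviral genes best known as interferon-induced stayed at the bottom of the scale. A log2 value of 4 was used as the limit below which a probe set was not tested, and values near 2 are close to the lowest the arrays give. By this limit 12 members were at or above 4 on all 18 arrays: Ifit2, Ifit3, Irf1, Irf9, Gbp2, Ifi35, Irgm1, Ifih1, H2-K1, H2-D1, B2m and Samhd1. Another 10 were below 4 on all 18: Irf7, Stat2, Rsad2, Iigp1, Mx1, Mx2, Tap1, Tap2, Parp14 and Dhx58. The other 9, Ifit1, Gbp3, Oasl2, Ifi47, Igtp, Usp18, Bst2, Cxcl10 and Eif2ak2, crossed the limit on some arrays. In all, 15 members had a mean of at least 4 and were tested, of 7382 genes tested. Because a low reading can come from a weak probe set, levels of different genes were not ranked.

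**Figure D1:**
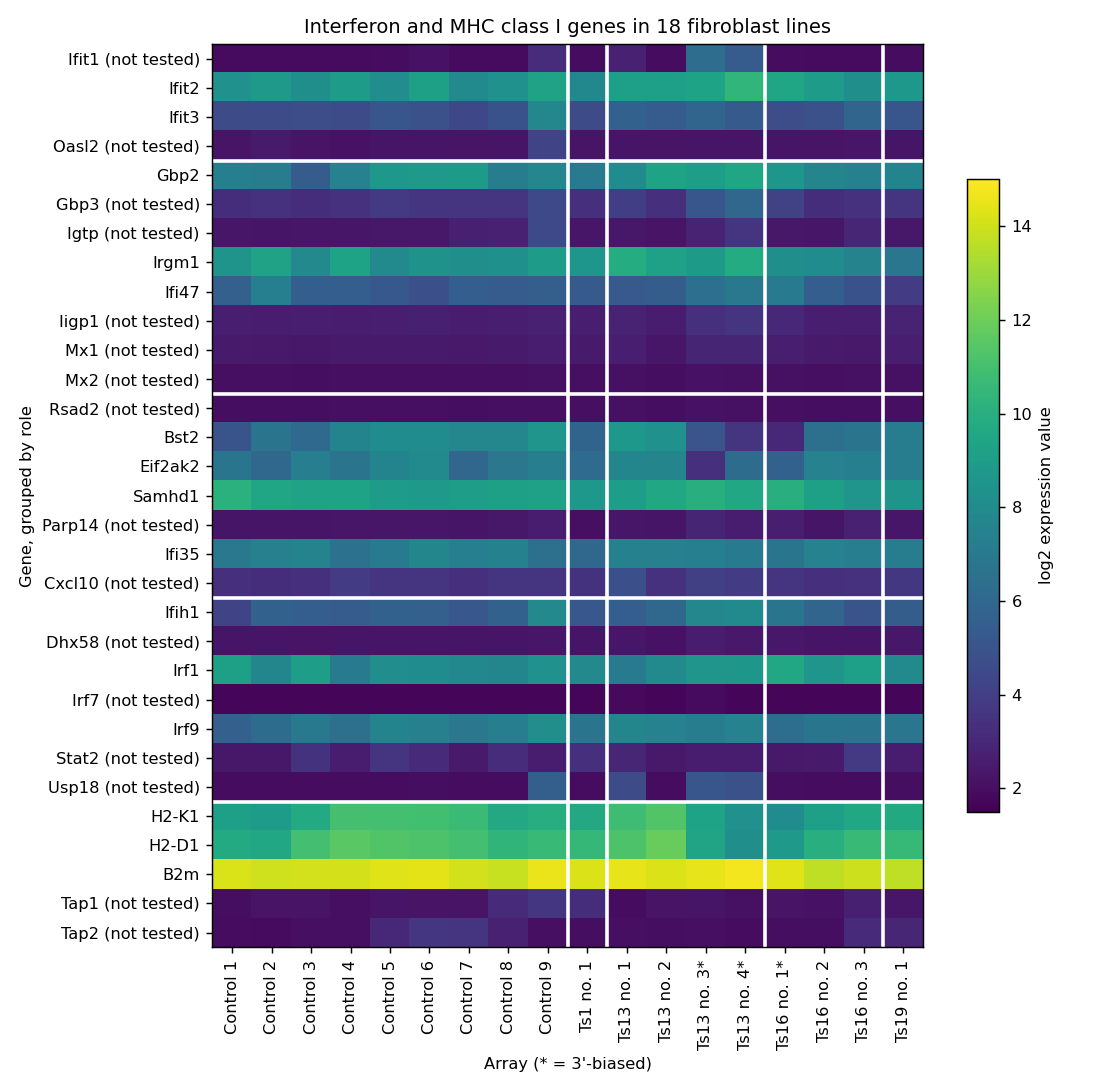
Heat map of the log2 expression value of 31 members (rows, grouped by role) on 18 arrays (columns, grouped by control, Ts1, Ts13, Ts16 and Ts19; Ts means trisomy, and an asterisk marks the 3 arrays with 3' bias). The bottom of the colour scale is filled by the 10 members below 4 on every array, and control 9 stands out in Ifit3, Oasl2 and Igtp. In Ifih1 and Usp18 it stands out among the controls only, since some trisomy 13 arrays read about as high.

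The comparisons ask whether extra chromosomes alter these basal readings. No tested member was called in any group with limma at a Benjamini-Hochberg adjusted p under 0.05 over all genes tested. In trisomy 13, 0 of 15 members were called, where 1.76% of all 7382 genes were; 4 of 15 had an unadjusted p under 0.05, all of them above the controls, against 21.9% of all genes in either direction and 9.88% upward. These were Ifit2, Irgm1, Gbp2 and B2m. The median member difference was 0.31 on the log2 scale, beside 0.01 over all genes, and 10 of 15 lay above the control mean against 51.2% of all genes. All 4 trisomy 13 arrays lay above the control mean for 6 of 15 members (Ifit2, Ifit3, Irf9, Gbp2, Irgm1 and B2m), a pattern that 16.9% of all genes showed. All 4 arrays lay above every control in 0 of 15 members, against 1.77% of all genes.

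The trisomy 13 pattern was recomputed without the arrays that stood apart. Without the 3 arrays with 3' bias, 13 of 15 members lay above their control means and the median was 0.58, beside 0.0041 over all genes, and 1 of 15 (Irgm1) had an unadjusted p under 0.05 (limma, 0 called), against 9.67% of all genes in that fit. With the Gapdh 3' to 5' difference as a covariate, 12 of 15 lay above, the median was 0.43 beside -0.06, and 1 of 15 (Irgm1) had an unadjusted p under 0.05, against 13.5%. Without trisomy 13 replicate 4 and control 8, the arrays with macrophage signal, 13 of 15 lay above, with a median of 0.24 beside -0.03 over all genes, and 0 of 15 had an unadjusted p under 0.05, against 9.33%. Leaving out replicate 4 alone left 1 of 15 (Irgm1), against 10.8%. Leaving out control 9 as well as the 3'-biased arrays, a choice made after seeing the data, gave a median of 0.79, with no all-gene median beside it. The share of all genes above the controls was not counted in these fits. Without the 3'-biased arrays, only trisomy 13 replicates 1 and 2 remained, set against controls of all title numbers. Against controls of their own title number they were above in 11 and 10 of 15 members, with medians of 0.38 and 0.43.

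In trisomy 16, with its extra receptor genes, 0 of 15 members were called by limma, where 0.0406% of all genes were, and 1 (Irf1, which was higher) had an unadjusted p under 0.05, against 6.99% of all genes in either direction and 3.41% upward. The median member difference was -0.02, beside -0.05 over all genes, and 6 of 15 members lay above the control mean against 44.2% of all genes. All 3 arrays lay below the control mean for Irf9, Irgm1, Bst2, H2-K1 and H2-D1 (5 of 15, against 14.3% of all genes) and above it for Irf1 (1 of 15, against 10.2%). Against controls 1 to 3 alone, each with the same replicate number and title number as its line, only Irgm1 of these 5 was below in all 3 pairs. Irf9 was above in 2 pairs, and Bst2, H2-K1 and H2-D1 were above in 1 pair each. Of the other tested members, Ifit2, Ifit3, Irf1 and Gbp2 were above in all 3 pairs, Samhd1 was below in all 3, and the rest were mixed. Against the controls of its own title number, each trisomy 16 array was above in 10 of 15 members and below in 5. The median differences were 0.12, 0.18 and 0.11. The share of all genes was not counted for these pairings. Both comparisons share the same 9 controls. Set directly against each other on 6862 genes off chromosomes 13 and 16, trisomy 13 and trisomy 16 differed in 0 of 15 members, where 0.918% of genes were called. An unadjusted p under 0.05 (limma) was found in 3 of 15 (Irgm1, B2m and Irf1), against 15.9%. The trisomies share no title number, so in this direct contrast trisomy and title number cannot be told apart. With the first number as a block, 0.0146% of genes were called. In that limma fit 1 of 15 members had an unadjusted p under 0.05, against 5.19%.

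**Figure D2:**
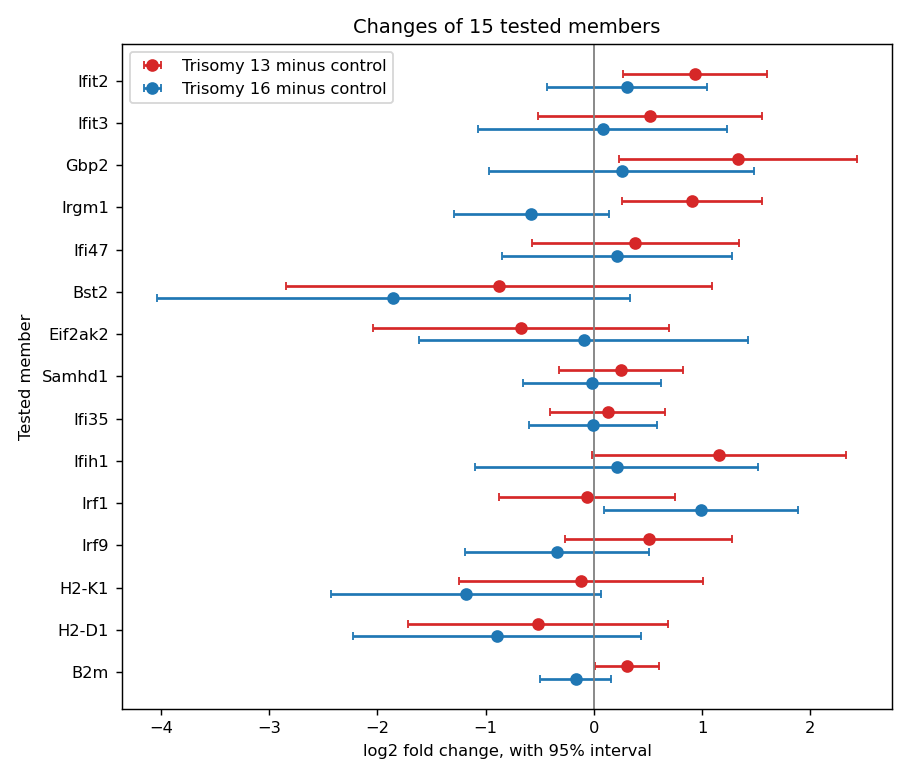
Log2 fold change of the 15 tested members in trisomy 13 (4 lines, red) and trisomy 16 (3 lines, blue) against 9 controls; points are limma estimates and bars are 95% intervals, not adjusted for the number of genes. The intervals of Ifit2, Irgm1, Gbp2 and B2m in trisomy 13 and of Irf1 in trisomy 16 lie above 0, and Bst2 has the widest interval in both groups.

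The receptor chains were taken first, since trisomy 16 adds a copy of 4 of them. All 5 measured chains were well above the limit in the controls. Ifnar2, the high-affinity chain of the type I receptor, ran from 9.23 to 10.11 in the controls (median 9.68), and read 10.76, 10.09 and 10.61 in trisomy 16. Replicate 1, the 3'-biased array, and replicate 3 were above every control, and replicate 2 was just below the highest. The difference was 0.80 ± 0.20 (SE; 95% interval 0.37 to 1.23; limma adjusted p = 0.175), and each line exceeded the control of its own replicate number, by 1.53, 0.40 and 0.93.

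Il10rb ran from 8.42 to 9.84 in the controls (median 9.16) and read 9.71, 10.40 and 9.98 in trisomy 16, so that replicates 2 and 3 lay above every control. Its difference was 0.85 ± 0.27 (SE; limma adjusted p = 0.366), and with trisomy 16 lines paired to controls 1 to 3 it was 0.48 ± 0.22. Ifnar1, the partner of Ifnar2, read 8.87, 9.61 and 9.65 in trisomy 16 against 8.99 to 9.54 in the controls (median 9.16), a difference of 0.16 ± 0.29 (SE). The low value came from the 3'-biased array.

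Ifngr2, the signalling chain of the interferon gamma receptor, read 5.31, 9.36 and 9.54 in trisomy 16. Controls ran from 7.11 to 8.73 (median 8.08). The low reading was again the 3'-biased replicate 1, and the same probe set read 3.86 and 5.85 on the 3'-biased trisomy 13 arrays. Over all 3 lines the difference was 0.02 ± 0.96 (SE), and without the 3'-biased arrays it was 1.40 ± 0.40. Ifngr1, the ligand-binding chain, is on chromosome 10 and served as a chain without an extra copy. It read 8.80, 9.03 and 8.61 in trisomy 16, within the control range of 7.52 to 8.96 but for replicate 2, a difference of 0.29 ± 0.26 (SE). Of the 5 chains, 0 were called by limma in trisomy 16 and 2 (Ifnar2 and Il10rb) had an unadjusted p under 0.05, beside 6.99% of all genes; the 5 estimates lay above 0, with a median of 0.29.

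**Figure D3:**
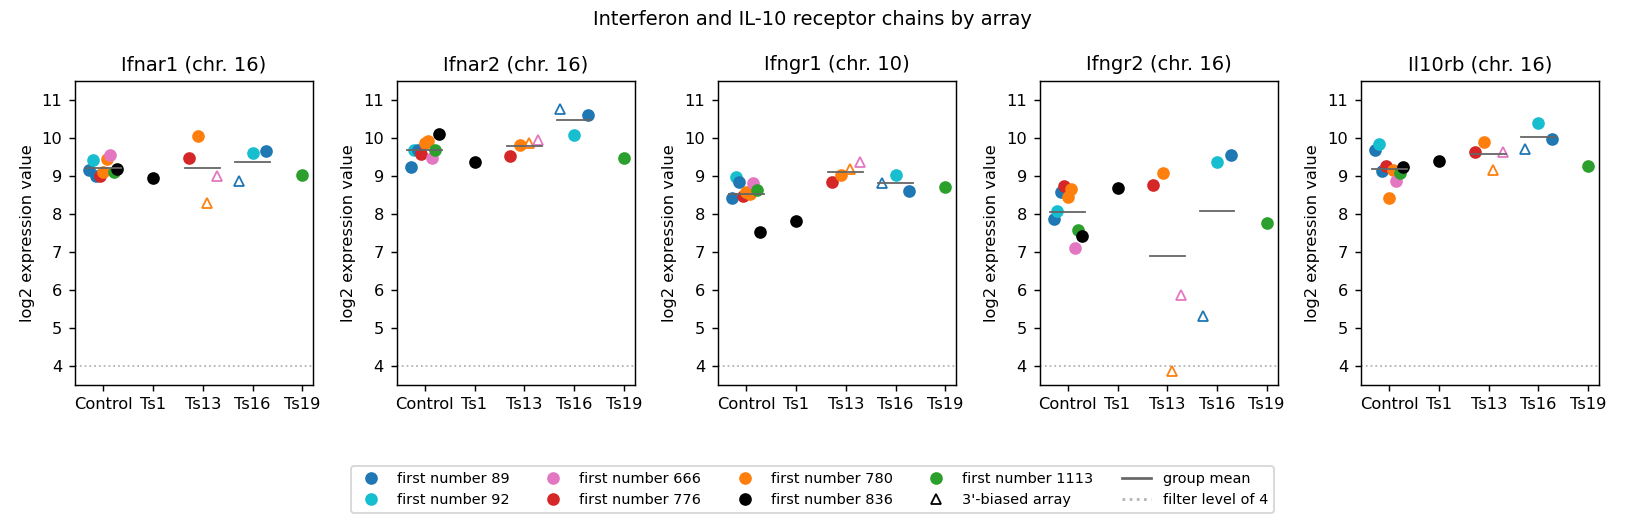
Log2 expression value of 5 receptor chains by group (x axis) on 18 arrays; colour gives the first number of the title, open triangles the 3 arrays with 3' bias, and grey lines the means of groups of more than 1 array. In trisomy 16, Ifnar2 and Il10rb reach above the controls on 2 of 3 arrays each, and Ifngr2 is high on 2 arrays and at 5.31 on the 3'-biased one.

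Downstream of the receptors, the genes that carry the signal showed no called difference. Of the 7 tested signal transducers, 0 were called in trisomy 16 and 0 had an unadjusted p under 0.05 (limma; median -0.07), and in trisomy 13, 0 were called and 2 had an unadjusted p under 0.05 (Pias1, 0.59, and Stat3, -1.97), a count to read beside 21.9% of all genes. Irf9, the DNA-binding subunit of the type I complex, had a control median of 6.94 with a range of 5.63 to 8.18. It read 7.71, 7.46, 7.18 and 7.49 in trisomy 13 and 6.40, 6.74 and 6.70 in trisomy 16. Both groups lay inside the control range, with the 4 trisomy 13 values above the 3 of trisomy 16. The differences from control were 0.51 ± 0.36 (SE) and -0.34 ± 0.40 (SE), and between the trisomies 0.85 ± 0.46 (SE; limma adjusted p = 0.374). The direction in trisomy 16 turned when the lines were paired with controls 1 to 3 (differences of 0.78, 0.49 and -0.24; paired estimate 0.34 ± 0.31), and with the title number as a block the trisomies differed by 0.05 ± 0.55.

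Stat2, a partner of Irf9 in that complex, stayed between 2.35 and 3.80 on all 18 arrays, and Irf7, which amplifies the type I response, between 1.68 and 1.87. Neither could be compared at these levels. Irf1, strongly induced by interferon gamma and an activator of class I genes, was the member with the lowest p in trisomy 16. Controls ran from 7.06 to 9.19 (median 8.07), and trisomy 16 read 9.62, 8.53 and 9.14. Replicate 1, the 3'-biased array, was above every control, and the others lay within the upper part of the control range.

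The Irf1 difference in trisomy 16 was 0.99 ± 0.43 (SE; 95% interval 0.09 to 1.89; limma adjusted p = 0.672). Controls 1 and 3, which share the number 89 with trisomy 16 replicates 1 and 3, were also the highest controls for Irf1 (9.19 and 9.00). Paired with controls 1 to 3, the lines differed by 0.43, 0.83 and 0.14, and the paired estimate was 0.47 ± 0.23 (SE). Leaving out the 3'-biased replicate 1 gave a difference of 0.73 against all controls. In that fit 0 of 15 members had an unadjusted p under 0.05 in trisomy 16 (limma), against 7% of all genes. In trisomy 13 Irf1 read 7.07, 7.89, 8.54 and 8.66, spread around the control median, with a difference of -0.07 ± 0.38 (SE). The values of 8.54 and 8.66 came from the 3'-biased arrays. Trisomy 13 was 1.06 ± 0.49 (SE) below trisomy 16 (limma adjusted p = 0.3). The controls with the title numbers of trisomy 13 averaged 7.77, and those with the numbers of trisomy 16 averaged 8.63.

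Among sensors, Ifih1 (MDA5), which detects long double-stranded RNA in the cytosol, varied most. Its control median was 5.64, with a lowest value of 4.28 and a highest of 7.84 in control 9. Trisomy 13 read 5.55, 6.06, 7.73 and 7.95, and trisomy 16 read 6.72, 5.88 and 5.03. In both groups the 3'-biased arrays were the high ones. The trisomy 13 difference of 1.16 ± 0.56 (SE; limma adjusted p = 0.235) was 0.14 ± 0.61 without the 3'-biased arrays.

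Dhx58 (LGP2), a regulator of the same sensors, read at most 2.57 on any array. Usp18, a protease that removes ISG15 and also damps signalling at Ifnar2, was close to 2 on 8 of 9 controls and read 5.58 in control 9. In trisomy 13 it read 4.65, 1.95, 5.10 and 4.84, and on the other 5 trisomic arrays 1.94 to 1.99. It was therefore above the limit of 4 on 4 of 18 arrays, among them control 9 and trisomy 13 replicate 1, which are not 3'-biased. Its mean over all arrays did not pass the filter, so it was not tested.

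The IFIT proteins bind foreign RNA and block its translation. Ifit2 was high in every line, with controls from 7.94 to 9.27 (median 8.33). It read 9.14, 9.14, 9.31 and 10.38 in trisomy 13, 9.44, 8.89 and 8.24 in trisomy 16, 7.81 in trisomy 1 and 8.70 in trisomy 19. The trisomy 13 values sat at the top of the control range, with replicates 3 and 4 above it. The difference of 0.94 ± 0.31 (SE; 95% interval 0.27 to 1.60) had the lowest p of the members in trisomy 13 (limma adjusted p = 0.117), and without the 3'-biased arrays it was 0.58 ± 0.35.

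Ifit3 ran from 4.40 to 5.09 in 8 controls and read 7.75 in control 9. Trisomy 13 read 5.67, 5.45, 5.88 and 5.32, above those 8 controls on all 4 arrays but below control 9. Its difference was 0.52 ± 0.49 (SE; limma adjusted p = 0.542). Ifit1 was near 2 in 8 controls, 3.21 in control 9, and 2.73, 1.94, 6.31 and 5.44 in trisomy 13. It was above 4 on 2 arrays in all, both of them 3'-biased, and its mean did not pass the filter.

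The Ifit genes are on chromosome 19 and have an extra copy in trisomy 19. In that line Ifit2 read 8.70 and Ifit3 5.10, both inside the control range, and Ifit1 was near 2, at 1.94. Against its own number's control (control 8) the differences were 0.38 for Ifit2 and 0.18 for Ifit3. A single line has no replicate, and the fit assumed that it varies like the other groups.

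**Figure D4:**
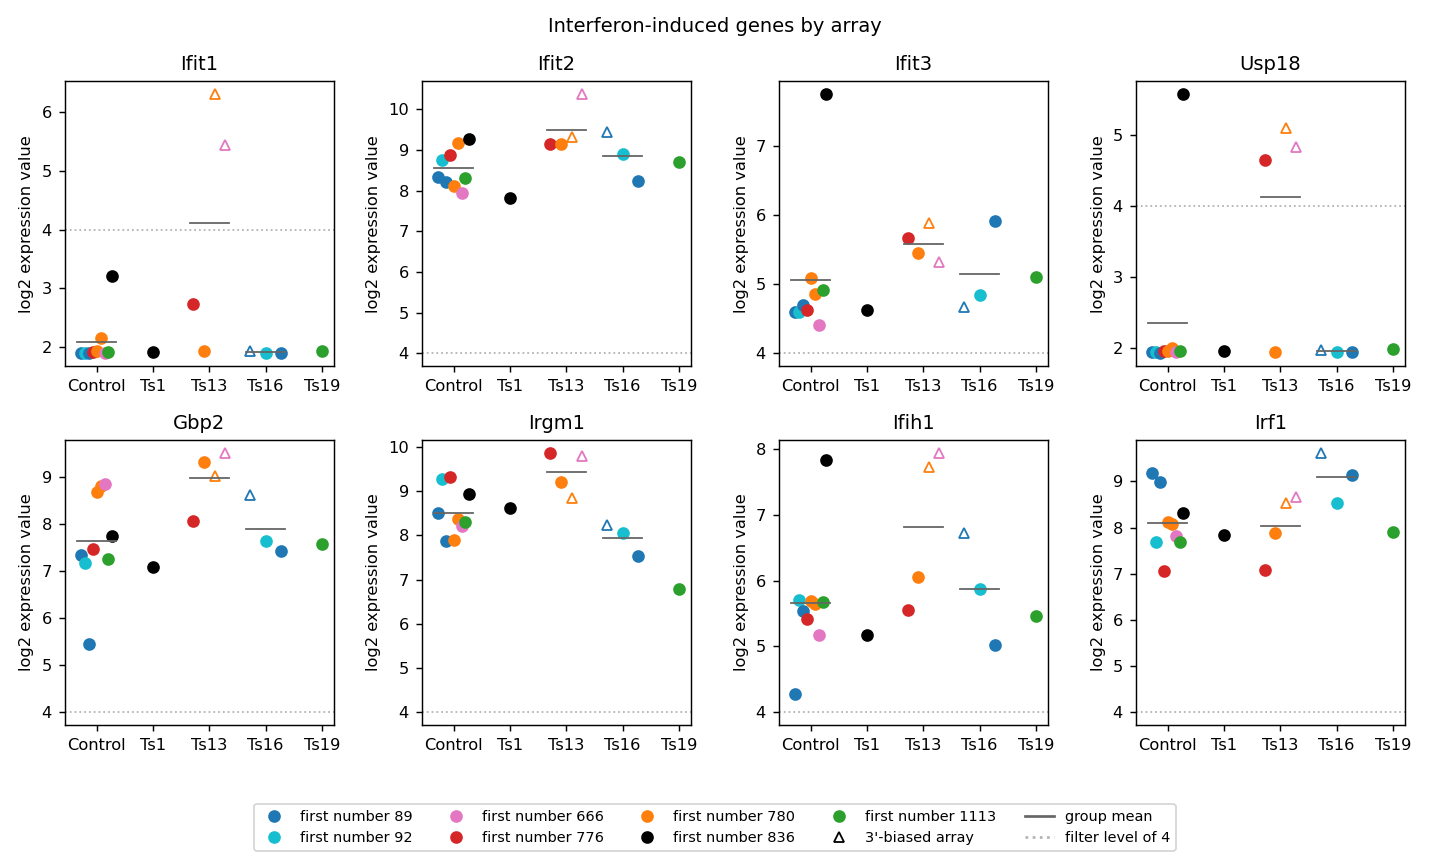
Log2 expression value of 8 interferon-induced genes by group (x axis) on 18 arrays; colour gives the first number of the title, open triangles the 3 arrays with 3' bias, grey lines the means of groups of more than 1 array, and the dotted line the limit of 4. Control 9 (black) is the highest control in Ifit1, Ifit2, Ifit3, Usp18 and Ifih1, and the trisomy 13 arrays are above the limit for Usp18 on 3 of 4 arrays.

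Control 9 stood out in part of the set. It was the highest of the 9 controls in 18 of 31 members (58.1%), beside 45.9% of all 12394 genes, and it was over 1 log2 unit above the next control in 6 of 31 (19.4%), beside 1.13% of all genes. The 6 were Ifit1, Ifit3, Oasl2, Igtp, Usp18 and Ifih1. Of the 18 members highest there, 12 were among the 16 untested members, which did not pass the level filter. The share of untested genes alone was not set beside them, so the count of 18 is not read as particular to these members. Among the tested members it was 6 of 15 (40%), beside 23.9% of all tested genes. Oasl2, an oligoadenylate synthetase-like protein, read 4.25 there and at most 2.50 on the other 17 arrays, and Igtp (Irgm3) read 4.46 there and at most 3.57 elsewhere. Of 45 other interferon-induced genes measured, Trim21, Gbp7 and Irgm2 were also over 1 unit above the next control on this array. Its Gapdh 3' to 5' difference of 1.41 was the highest among the arrays not called 3'-biased. Of the interferon genes themselves, 0 of 10 measured passed the filter, and their mean on control arrays ran from 2.17 to 2.25. Whether the RNA state has a part in this was not tested.

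Interferon-induced GTPases defend the cytosol against pathogens in vacuoles. Gbp2, a guanylate-binding protein, had a control median of 7.46, from 5.45 in control 3 to 8.84 in control 7. Trisomy 13 read 8.06, 9.31, 9.01 and 9.51, so 3 of 4 lines lay above every control. The difference was 1.34 ± 0.52 (SE; 95% interval 0.24 to 2.44; limma adjusted p = 0.16). Controls that share numbers with trisomy 13 were already high (8.67, 8.81 and 8.84 in controls 5 to 7), and with the first number as a block the difference was 0.52 ± 0.44.

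In trisomy 16 Gbp2 read 8.61, 7.63 and 7.43. Against all controls the difference was 0.26 ± 0.58 (SE), but each line was above the control of its own replicate number, by 1.28, 0.47 and 1.98, and the paired estimate was 1.24 ± 0.36 (SE), not called. The second probe set of Gbp2 gave a trisomy 13 difference of 1.56. Gbp3 was near the limit, from 3.25 to 4.51 in the controls, and read 5.12 and 5.93 on the 3'-biased trisomy 13 arrays against 3.98 and 3.33 on the other 2.

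Irgm1, an immunity-related GTPase of autophagy, had the lowest p of the members between trisomy 13 and trisomy 16. Controls ran from 7.86 to 9.33 (median 8.36). Trisomy 13 read 9.87, 9.21, 8.85 and 9.78, trisomy 16 read 8.22, 8.05 and 7.54, trisomy 1 read 8.62 and trisomy 19 read 6.79. The lowest trisomy 13 value was above the highest of trisomy 16, while each group overlapped the controls. The differences from control were 0.91 ± 0.31 (SE; limma adjusted p = 0.117) and -0.58 ± 0.34 (SE; limma adjusted p = 0.757), and trisomy 13 was 1.49 ± 0.39 (SE; 95% interval 0.67 to 2.31; limma adjusted p = 0.0767) above trisomy 16.

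Without the 3'-biased arrays the trisomy 13 estimate was 1.02 ± 0.39, and with the first number as a block 0.98 ± 0.31, in the same direction. All 3 trisomy 16 lines lay below their paired controls, with differences of -0.27, -1.22 and -0.33. In trisomy 19 Irgm1 was below all 9 controls, a difference of -1.72 ± 0.54 (SE; unadjusted p = 0.00536; limma adjusted p = 1). Ifi47 (Irg47), a related GTPase, was also lowest in that line at 3.90, where controls ran from 4.80 to 7.31 (difference -1.72 ± 0.79, SE; limma adjusted p = 1).

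Mx1, Mx2 and Parp14 are on chromosome 16 and have an extra copy in trisomy 16. Mx1 and Mx2 are dynamin-like GTPases against RNA viruses, and Parp14 is an ADP-ribosyltransferase. They read at most 2.91, 2.16 and 2.90 on any array, below the limit, and each differed from its paired control by between 0.02 and 0.44. An effect of copy number was not detectable at these levels. Iigp1, another GTPase, and Rsad2 (viperin), an antiviral enzyme, were as low.

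Bst2 (tetherin), which holds budding virions at the cell surface, had the largest spread over the controls of the tested members (SD 1.13, n = 9). Controls 1 to 3 read 5.01, 6.69 and 6.10, and controls 4 to 9 read 7.59 to 8.56. Trisomy 13 read 8.72 and 8.33 on the arrays without 3' bias and 5.06 and 3.52 on the 3'-biased ones, and trisomy 16 read 6.50 and 6.72 on the arrays without 3' bias and 3.07 on the biased one. The trisomy 13 difference of -0.88 ± 0.93 (SE) was 1.25 ± 0.71 without the 3'-biased arrays, so its direction turned with them. In trisomy 16 the value went from -1.85 ± 1.03 to -0.67 ± 0.71.

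Eif2ak2 (PKR) is the kinase that halts translation when it binds double-stranded RNA. It read below every control on the 3'-biased arrays of trisomy 13 replicate 3 and trisomy 16 replicate 1 (5.69), but not on trisomy 13 replicate 4. Controls ran from 5.98 to 7.91 (median 6.84), and it read 3.38 and 6.27 on the 3'-biased trisomy 13 arrays against 7.70 and 7.67 on the others. The difference of -0.67 ± 0.65 (SE) was 0.76 ± 0.44 without the biased arrays. Samhd1, which depletes deoxynucleotides, ran from 8.83 to 10.12 in the controls and differed by 0.25 ± 0.27 (SE) in trisomy 13 and -0.02 ± 0.30 (SE) in trisomy 16.

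Ifi35 ran from 6.50 to 7.72 in the controls (median 7.35). In trisomy 1 it read 6.06, below every control, a difference of -1.11 ± 0.44 (SE; unadjusted p = 0.0226; limma adjusted p = 0.678). The chemokine Cxcl10 was at 3.24 to 3.89 in the controls and above 4 only in trisomy 13 replicate 1 (4.79) and replicate 3 (4.06).

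MHC class I molecules present cytosolic peptides to CD8 T cells. B2m, the invariant light chain, ran from 13.88 to 14.61 in the controls (median 14.11). It read 14.49, 14.28, 14.49 and 14.75 in trisomy 13 and 14.36, 13.72 and 14.00 in trisomy 16. The trisomy 13 lines were all above the control mean of 14.19 ± 0.23 (SD, n = 9) but inside or just above its range, with a difference of 0.31 ± 0.14 (SE; limma adjusted p = 0.212). Trisomy 13 was 0.47 ± 0.18 (SE, limma adjusted p = 0.194) above trisomy 16. In the second B2m probe set trisomy 13 read 14.19, 14.50, 13.59 and 14.28, a difference of 0.21 from the controls. There the 13.59 of replicate 3, a 3'-biased array, lay below the lowest control (13.63).

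In some probe sets the heavy chains grouped by title number in the controls. H2-K1 read 8.91 to 9.73 in controls 1 to 3 (the numbers of trisomy 16), 10.69 to 11.01 in controls 4 to 7 (those of trisomy 13) and 9.62 to 9.91 in controls 8 and 9. The trisomic arrays without 3' bias stayed near the controls of their number: 9.12 and 9.54 in trisomy 16, 10.82 and 11.36 in trisomy 13, 9.64 in trisomy 1 and 9.70 in trisomy 19. The 3 biased arrays read 9.35, 8.35 and 8.07. In the other 2 measured H2-K1 probe sets the separation was not complete: control 4 read 8.14 and 6.21 there, among controls 1 to 3, while controls 5 to 7 stayed above all other controls. Against all 9 controls trisomy 16 differed by -1.18 ± 0.59 (SE; limma adjusted p = 0.728), and paired with controls 1 to 3 by -0.33 ± 0.29.

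H2-D1 gave the widest separation in a probe set other than the one chosen, the dimmest of its 3 measured ones. It read 5.15 to 6.30 in controls 1 to 3, 9.73 to 10.11 in controls 4 to 7, and 6.45 and 7.78 in controls 8 and 9, with the trisomic arrays without 3' bias at 5.55 and 6.29 in trisomy 16 and 9.96 and 10.39 in trisomy 13. The suffix _x_at marks probe sets that can also bind other transcripts, so these values may include related class I genes. This probe set was singled out after its values were seen. The measured H2-D1 probe set of intermediate brightness also separated the controls fully. It read 10.51 to 11.09 in controls 4 to 7, 9.24 to 10.33 in controls 1 to 3, and 9.78 and 10.06 in controls 8 and 9. In the chosen probe set the grouping was not complete, since control 3 read 10.99 and control 7 read 10.96. There H2-D1 differed by -0.52 ± 0.57 (SE) in trisomy 13 and -0.89 ± 0.63 (SE) in trisomy 16, and without the 3'-biased arrays by 0.86 ± 0.46 and -0.39 ± 0.46.

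Tap1 and Tap2, which carry peptides into the endoplasmic reticulum, read at most 3.62 and 3.66 on any array, and the immunoproteasome subunit Psmb9 near 1.85 in the controls. Tapbp (tapasin), which holds class I next to the transporter, was measured at 9.80 ± 0.87 (SD, n = 9) in the controls. Of 10 tested class I and peptide-loading genes, 0 were called in trisomy 13 and 2 had an unadjusted p under 0.05 (limma), beside 21.9% of all genes: Erap1, the peptide-trimming enzyme, at 1.35 ± 0.34 (SE; limma adjusted p = 0.0532), which lies on chromosome 13 and so has an extra copy there, and B2m. In trisomy 16, 0 were called and 1 had an unadjusted p under 0.05 (Canx, -0.39), beside 6.99% of all genes.

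**Figure D5:**
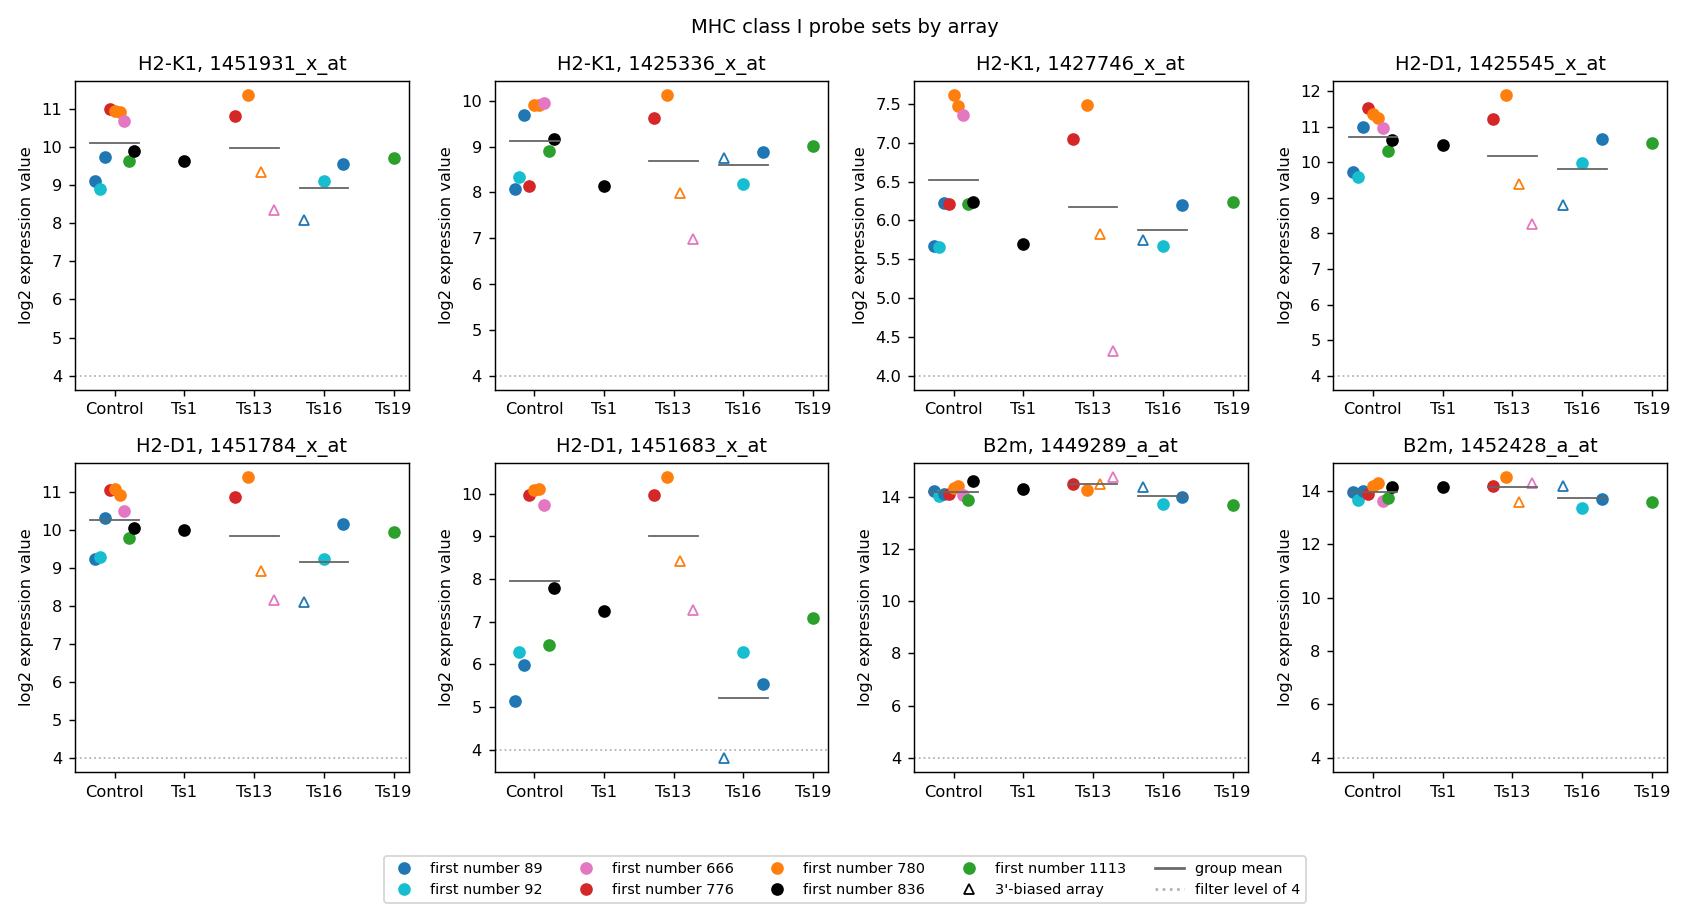
Log2 expression value of 8 MHC class I probe sets (3 of H2-K1, 3 of H2-D1 and 2 of B2m, by falling mean) by group (x axis) on 18 arrays; colour gives the first number of the title, open triangles the 3 arrays with 3' bias, and grey lines the means of groups of more than 1 array. In the first H2-K1 panel and the middle and last H2-D1 panels the 4 controls with the title numbers of trisomy 13 lie above the other 5. Both B2m panels are nearly flat.

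The single lines and the pooled contrast gave no called member. In trisomy 1, 0 of 15 were called by limma (0.0406% of all genes) and 1, Ifi35, had an unadjusted p under 0.05, downward (6.29% of all genes in either direction, 2.64% downward). The value exceeded the control mean in 2 of 15 members, against 55.3% of all genes, and the median difference was -0.45 beside 0.05. Against control 9 alone, which shares its number, trisomy 1 was lower in 15 of 15 members, most in Ifit3 (-3.13) and least in H2-D1 (-0.15). The share of all genes lower in this pair of arrays was not counted, so the count has no background beside it. Control 9 is the line with the high induced genes described above. It was the highest control in 6 of 15 tested members (40%), beside 23.9% of all tested genes. In trisomy 19, 0 of 15 were called (0% of all genes) and 2, Irgm1 and Ifi47, had an unadjusted p under 0.05, both downward (1.96% of all genes in either direction, 0.894% downward). There 4 of 15 exceeded the control mean, against 38.8% of all genes, and the median difference was -0.18 beside -0.08. Over all 9 trisomic lines together, 0 of 13 members off the extra chromosomes were called (0.0646% of 6188 genes), 0 had an unadjusted p under 0.05 (6.66%), and the median was 0.02 beside -0.03; the lowest p was that of Bst2 (-1.17 ± 0.73, SE; limma adjusted p = 0.687).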

How the data were processed

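RNA from 18 MEF lines was labelled from 5 ug of total RNA each and hybridised to Affymetrix arrays, per the labels' protocols. The authors deposited a log2 expression value for each of 22690 probe sets, made with GCRMA and affy, per the submitters' processing notes; no version is named there, and the log2 scale was read from the values (0.97 to 16.57). GCRMA normalizes between arrays, so unequal RNA quality can remain in single probe sets. Gene names came from the platform annotation table: 20393 probe sets name 1 gene, 691 several and 1606 none, and those naming several or none were not used.

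Genes whose log2 values averaged 4 or more entered a linear model in limma (version 3.58.1, under R 4.3.3; lmFit and eBayes, trend on) over all 18 arrays in 5 groups, two-sided, with Benjamini-Hochberg adjusted p-values over all genes tested and calls at 0.05. Fold changes are differences of log2 values. Array number limits the precision. On simulated data with 200 changed genes among 7382, a log2 change of 1 was found in 39% (trisomy 13) and 38% (trisomy 16) of cases and a change of 2 in 84.7% and 81.3%, over 3 runs. Values were not converted between builds.

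The members and lists were chosen with earlier results of these data known. Named in full were members called, the 6 lowest p in each comparison, those on an extra chromosome and the 5 with the largest control SD or mean; of other lists, called genes or up to 4 by p, and receptor chains always. Trisomy 16 and control replicates 1 to 3 share both the replicate number and the title number; their deviations from the group means correlated at 0.53, 0.41 and 0.57, and they were treated as pairs, while for trisomy 13 the values were -0.25 to -0.05 by replicate number and, against the mean of controls with the same title number, -0.03 to 0.24, so neither was used as a pairing. Promoters came from RefSeq (GRCm38.p6); Usp18, Iigp1, Dhx58, Mx1, Tap2, Mx2 and Parp14 had no entry matched. Other filters, probe set choices, scalings, blocks and array sets were tried, as given at the end.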

Additional observations from a re-analysis of the deposited data

Results flagged for a closer look

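In groups of 4 to 10 arrays, the highest or lowest value was compared with its nearest neighbour by Dixon's test, for members with a value of at least 4 in the group. Of 38 groups of values checked, 10 had a value past the 95% limit. In the controls Usp18, Oasl2, Igtp and Gbp3 entered this check only through the control 9 value that it then flagged. The groups were thus partly chosen by the values under test, and the count of 10 is not set against a rate from chance.

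Control 9 accounted for 6 of the 10, each as the highest control. Ifit3 read 7.75 there and 5.09 in the next control. Usp18 read 5.58 against 2.01, Ifih1 7.84 against 5.7, Igtp 4.46 against 2.74, Oasl2 4.25 against 2.5 and Gbp3 4.51 against 3.8. In other controls, Gbp2 was lowest in control 3 at 5.45, with the next at 7.16, and Ifi47 was highest in control 2 at 7.31, with the next at 5.66.

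In trisomy 13, Ifit2 was highest in replicate 4 at 10.38 with the next at 9.31, and Usp18 was lowest in replicate 2 at 1.95 with the next at 4.65. The first of these arrays is 3'-biased and carries macrophage gene signal, and the part of either in the value was not tested.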

How the results depend on the processing

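No member was called by limma in any of 203 fits over 35 settings, 18 of which left out 1 array. The lowest adjusted p of a member was 0.0527, for Irgm1 between trisomy 13 and trisomy 16 with the Gapdh difference as a covariate. Over all genes, the 130 calls in trisomy 13 became 6 with the title number as a block, 9 with the replicate number as a block, 25 against controls of the same title number, 46 with the Gapdh covariate or array weights, 61 with the probe set of largest spread, 14 without the 3'-biased arrays and 13 without the arrays with macrophage signal. Leaving out 1 array they ranged from 26 (without trisomy 13 replicate 4) to 734 (without replicate 2). The median member difference in trisomy 13 was 0.31, and became 0.60 with each array centred on its median (which moved the median of all genes to 0.31), 0.58 without the 3'-biased arrays and 0.79 without those and control 9, a setting chosen after seeing the data. Leaving out 1 array at a time it ranged from 0.24 to 0.40; the range was -0.24 to 0.03 in trisomy 16, -0.50 to -0.31 in trisomy 1, -0.33 to -0.04 in trisomy 19 and -0.09 to 0.10 over all trisomic lines. With the replicate number as a block the median was -0.15 in trisomy 1 and 0.25 in trisomy 19, where replicate 1 shares no title number with control 1; over the 3 trisomy 16 pairs it was -0.08, and the replicate block changed no call. The causes were not tested. Of the medians and counts of calls, 323 other values stayed within the spread (medians) or within 1.5 times (counts). The counts of called members were 0 in every fit, so the limit of 1.5 times had nothing to compare. The tally is therefore no measure of stability for the counts. Single lines of trisomy 1 and 19, 3 biased arrays and probe sets near background limit what could be seen.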

Other observations

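Among interferon-induced genes outside the list, Ifi202b, an interferon-induced DNA-binding protein of the p200 family, had the widest split found. It read 2.41 to 2.53 in controls 1 to 3, 8 and 9 and 7.96 to 8.77 in controls 4 to 7. Trisomic lines read 8.42, 8.73, 9.40 and 10.03 in trisomy 13, 2.73, 2.43 and 2.47 in trisomy 16, 2.63 in trisomy 19 and 8.03 in trisomy 1. Trisomy 1, which has an extra copy of its chromosome, read 8.03 where control 9 of the same number read 2.51. The trisomy 13 difference of 4.05 ± 1.34 (SE; limma adjusted p = 0.116) therefore sets lines of one set of title numbers against controls of all of them.

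Ifitm3, a membrane protein that blocks virus entry, ran from 12.33 to 14.37 in the controls and read 12.55, 11.80 and 11.71 on the 3 arrays with 3' bias. Nmi, a partner of STAT proteins, differed by -1.09 ± 0.31 (SE; limma adjusted p = 0.0798) in trisomy 13. Of 18 other interferon-induced genes tested, 0 were called in trisomy 13 and 6 had an unadjusted p under 0.05 by limma (21.9% of all genes), with a median of -0.23; in trisomy 16, 0 were called and 2 had an unadjusted p under 0.05 (6.99% of all genes), with a median of -0.09. The interferon gene Ifnz read 5.01 and 3.79 on trisomy 13 replicates 3 and 4, both 3'-biased, and 3.00 or lower elsewhere. Ifi202b, Ifitm3 and Ifnz were chosen after their values were seen.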
